A study of Chlorocebus sabaeus with 18 samples.

Results

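The comparison described here set the transcripts of COS-7 cells with a CGG repeat construct and overexpressed TRA2A against those of cells with overexpressed TRA2A alone. COS-7 is a fibroblast-like line made from green monkey (Chlorocebus sabaeus) kidney. Of the 18 arrays of the study, 6 carry this comparison and were chosen by their titles. The CGG_TRA group (3 arrays) held cells with a construct of 60 CGG repeats in the FMR1 5'UTR and overexpressed TRA2A, and the GFP_TRA group (3 arrays) held cells with overexpressed TRA2A and no repeat construct. The title of the second group also names GFP, green fluorescent protein, and what carried it is not given in the sources used here. The other 4 groups, also of 3 arrays each, were CGG_siTRA (repeat construct with TRA2A knocked down), siTRA (TRA2A knocked down), CGG (repeat construct with TRA2A unaltered) and CTL (control cells). The titles mark the first CGG array and the third siTRA array as rehybridised.

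Several features of the design limit what the groups can model. All groups were the same line, no group had the construct without its repeat, and the labels do not say whether control cells received any transfection. Whether a group's 3 arrays hold separate cultures is not stated in the labels, so p-values measure the spread between these arrays, which may be technical. The level of TRA2A and the construct both differ between CGG_TRA and GFP_TRA, so their parts in any difference cannot be told apart. In bulk RNA, fewer cells carrying a plasmid and less RNA per cell likewise cannot be told apart.

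A CGG repeat in the 5'UTR of FMR1 is expanded in carriers of the premutation, some of whom develop the neurodegenerative disorder FXTAS. The repeat RNA folds into hairpins, gathers in nuclear foci with RNA-binding proteins, and can also be translated without a start codon. TRA2A is an SR-like protein that binds purine-rich exonic enhancers and promotes the inclusion of exons, and TRA2B is its close relative.

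Total RNA (100 ng per array) was hybridised to Clariom D Human arrays, whose probes were designed for human transcripts. Values are log2 signals, so a difference of 1 is a 2-fold change, and all differences below are CGG_TRA minus GFP_TRA unless another pair is named. The 6 arrays had medians between 4.14 and 4.16. Arrays of the same group correlated at 0.987 to 0.989 over the tested transcript clusters (Pearson), and arrays of different groups at 0.986 to 0.988, as a description across clusters. A transcript cluster is the array's unit for a gene, and 67854 clusters with a mean above 4.14 were tested. The typical 95% confidence interval of a difference reached 0.47 to either side, so changes well under that size were not detectable with 3 arrays a group. That interval is not adjusted for the number of tests. Calls needed an adjusted p over all 67854 clusters, so changes well above 0.47 could also be missed.

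Several markers of kidney epithelium and of fibroblasts had high values in both groups. KRT7, PAX8 and VIM, named here, were chosen after their values were seen. Of 20 kidney and epithelial genes 15 were measured, among them KRT7 at 14.84 in CGG_TRA and 14.94 in GFP_TRA cells, and PAX8 at 10.26 in CGG_TRA and 10.37 in GFP_TRA cells. PAX2, UMOD and SLC12A3 were among those not above the filter. Of 12 fibroblast genes 11 were measured, with VIM, an intermediate filament protein, at 16.12 in CGG_TRA and 16.18 in GFP_TRA cells. Others, such as FAP, lay far lower. Leukocyte (6 of 10), endothelial (8 of 9), neuronal (9 of 11) and erythroid (3 of 7) markers also passed the filter, so passing it does not tell cell types apart. The medians of their differences were 0.20, 0.06, -0.02 and -0.11. No member of these lists or of the kidney and fibroblast lists was called.

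Few gene-level values separated the groups beyond the spread between arrays. At an adjusted p under 0.05 (limma's moderated test, Benjamini-Hochberg) 4 transcript clusters fell in CGG_TRA cells and 0 rose, or 0.0059% of the 67854 tested. At an unadjusted p under 0.05 there were 3396 clusters, 5% of all, with 2.52% higher and 2.48% lower. A fold of at least 2 with an unadjusted p under 0.05 was met by 262 clusters, 0.386%. The arrays of the groups did not overlap in 11.4% of clusters. The median difference over all tested clusters was 0.01. The 4 called clusters were TRA2A itself, the U5 small nuclear RNA copy RNU5D-2P and 2 clusters without a gene name. Leaving out single arrays gave 0 calls without the second or the third GFP_TRA array or the second CGG_TRA array, 1 without the first CGG_TRA array, 6 without the first GFP_TRA array and 124 without the third CGG_TRA array.

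TRA2A fell in CGG_TRA cells relative to GFP_TRA cells, although both groups overexpressed it. TRA2A (TC0700010472.hg.1) measured 17.16, 17.11 and 17.22 in CGG_TRA cells, against 18.70, 18.39 and 18.50 in GFP_TRA cells. Every array of the first group was below every array of the second. The difference was -1.37 ± 0.19 (SE, as for all differences below), with a 95% interval of -1.77 to -0.97, or 2.58-fold lower (limma, adjusted p = 0.0161). Over 13 alternative settings the difference ranged from -1.44 to -1.26 and the adjusted p from 0.0027 to 0.192, with the call lost in 6 of them. Those were the variance taken from the compared arrays alone and the fits that left out any 1 of the 6 arrays other than the third CGG_TRA array, with adjusted p of 0.0557 to 0.137.

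The other groups give the frame of that fall. TRA2A averaged 11.82 ± 0.17 in CGG_siTRA and 11.55 ± 0.44 in siTRA cells, and 14.57 ± 0.12 in CGG and 14.62 ± 0.07 in CTL cells (SD, n = 3 each). Both overexpressing groups were thus above the unaltered groups and both knockdown groups below them. With TRA2A knocked down, CGG_siTRA minus siTRA was 0.28, and with TRA2A unaltered, CGG minus CTL was -0.05. The CGG change under overexpression differed from that in unaltered cells by -1.31 ± 0.27 (limma interaction, adjusted p = 0.0472), a call lost in 17 of 19 alternatives, with the adjusted p at 0.0083 to 0.128 over all of them. Its difference from the change under knockdown was -1.64 ± 0.27, with an adjusted p of 0.5593 (limma), not called. By limma it passed the threshold without the second siTRA array (0.0203), without the third CGG_TRA array (0.0441) and with a trended and robust variance (0.0324). In all other alternatives the adjusted p was 0.2202 or more (limma), with 0.9998 without the first CGG_TRA array.

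**Figure D1:**
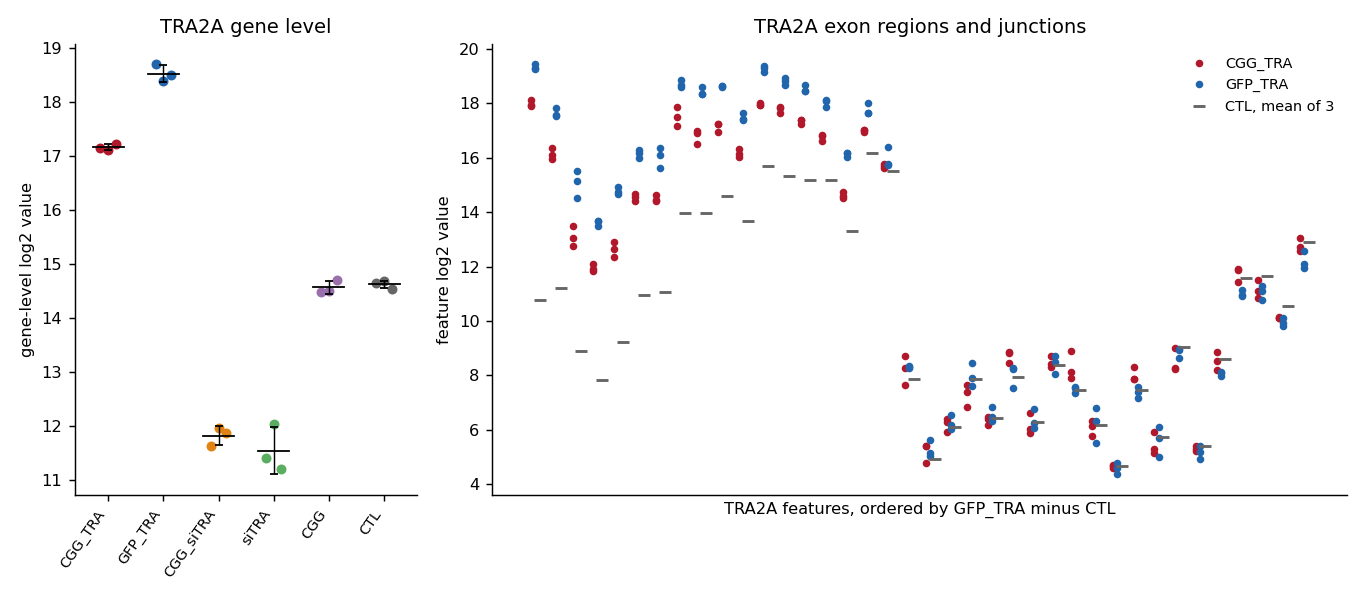
TRA2A on the arrays. Left, gene-level log2 value of TRA2A in each array (points) of the 6 groups, with the mean and SD (n = 3); the CGG_TRA arrays sit at 17.11 to 17.22 and the GFP_TRA arrays at 18.39 to 18.70. Right, log2 value of each of the 38 TRA2A exon regions and junctions (points, 1 per array) in CGG_TRA and GFP_TRA cells, with the mean of the 3 CTL arrays as a dash, ordered by GFP_TRA minus CTL; the 16 features raised over CTL in both groups are all lower in CGG_TRA.

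The exon table resolved this fall by parts of the gene. It holds 38 features of TRA2A, exon regions and exon-exon junctions, of which 27 passed the filter on feature values. A first set of 16 features lay at least 1 above CTL in both overexpressing groups, and a second set of 22 did not. All 16 of the first set were lower in CGG_TRA, with differences of -2.15 to -1.04 and a median of -1.49, and no array overlapped. The differences of the other 22 ran from -0.77 to 0.82 with a median of 0.01, 11 below 0 and 11 above. Of these 22, 6 lay higher in CGG_TRA without overlap and 1 lower. Over all features of the exon table the arrays did not overlap in 6.64% with CGG_TRA higher and in 5.9% with CGG_TRA lower. The split uses the same arrays as the differences and is a description.

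Single features show the levels behind this. The exon region PSR0700174547 measured 17.93, 17.90 and 18.12 in CGG_TRA cells, against 19.43, 19.30 and 19.27 in GFP_TRA cells, with a CTL mean of 10.77. Its difference was -1.35 ± 0.17 (limma on feature values, adjusted p = 0.0014). The region PSR0700174525 measured 13.51, 12.75 and 13.07 in CGG_TRA cells, against 14.52, 15.14 and 15.52 in GFP_TRA cells, a difference of -1.95 (limma, adjusted p = 0.0116). Both regions belong to the set above CTL in both overexpressing groups. The junction JUC0700062020 measured 11.89, 11.45 and 11.92 in CGG_TRA cells, against 10.96, 11.14 and 10.92 in GFP_TRA cells. It lay near its CTL mean of 11.58 and its difference of 0.75 was not called (limma, adjusted p = 0.9991). The region PSR0700174544 measured 13.06, 12.58 and 12.73 in CGG_TRA cells, against 12.56, 11.95 and 12.11 in GFP_TRA cells, with a CTL mean of 12.89. Its arrays did not overlap, and CGG_TRA lay 0.58 above GFP_TRA. Over all tested features 0.00563% were called lower on these values, and 9 of the 27 tested TRA2A features were called lower and 0 higher.

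TRA2B and FMR1 were not called. TRA2B (TC0300013428.hg.1) measured 16.69, 16.73 and 16.57 in CGG_TRA cells, against 16.63, 16.59 and 16.65 in GFP_TRA cells, a difference of 0.04 ± 0.15. FMR1 (TC0X00008668.hg.1), the gene whose 5'UTR the construct carries, measured 12.70, 12.93 and 12.68 in CGG_TRA cells, against 12.40, 12.58 and 12.44 in GFP_TRA cells. All 3 CGG_TRA arrays were above the GFP_TRA arrays, but the difference of 0.30 ± 0.17 did not pass the test (limma, adjusted p = 0.9982). Of 64 FMR1 features 49 were tested and 0 were called by limma, none reached an unadjusted p under 0.05, and the differences of all 64 ran from -0.51 to 0.94 with a median of 0.01.

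A cluster with no gene name was high in the same groups as TRA2A. TC0800011703.hg.1 measured 6.82, 6.95 and 7.16 in CGG_TRA cells, against 8.45, 8.94 and 9.56 in GFP_TRA cells. In the other 4 groups its means lay between 4.08 and 4.48, so both groups with overexpressed TRA2A lay above the other groups, CGG_TRA by less. It fell by 2.01 on the log2 scale, with an SE of 0.28 (limma, adjusted p = 0.0161). The second unnamed cluster, TC0500007930.hg.1, measured 5.05, 4.31 and 4.79 in CGG_TRA cells, against 6.37, 6.71 and 6.65 in GFP_TRA cells. Its means in the other 4 groups were 4.51 to 5.35, so the GFP_TRA arrays stood above the means of all other groups. The difference was -1.86 ± 0.24 (limma, adjusted p = 0.0161). These 2 calls were lost in 5 and 4 of the 13 alternatives, with the adjusted p reaching 0.217 and 0.192. Leaving out the second or the third GFP_TRA array or the second CGG_TRA array ended both, and leaving out the first CGG_TRA array ended that of TC0800011703.hg.1.

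The last called cluster was a small structured RNA. U5 RNA is the small nuclear RNA that holds the exon ends in the spliceosome. RNU5D-2P (TC0900009027.hg.1), a U5 copy, measured 10.14, 10 and 11.36 in CGG_TRA cells, against 12.25, 13.72 and 13.11 in GFP_TRA cells. Its means in the other 4 groups were 11.48 to 11.98, between these. The difference was -2.53 ± 0.34 (limma, adjusted p = 0.0161), and the call was lost in 5 of 13 alternatives with the adjusted p reaching 0.437, among them those without the first or second CGG_TRA array or the second or the third GFP_TRA array. Near-identical copies of these RNAs may share probes or cross-hybridise, so a copy's value cannot be assigned to its own locus. The classes and copies below were chosen after their values were seen and are given as descriptions.

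Of the 16 classes counted, U1, U5 and 5S RNA had the largest shares of lower copies. Of 23 U5 clusters, 10 (43.5%) were lower at an unadjusted p under 0.05 and 0 higher by limma, with a median difference of -0.50. Of 116 clusters of U1, the small nuclear RNA that recognises 5' splice sites, 52 (44.8%) were lower and 2 higher, with a median of -0.44. Of 277 clusters of 5S ribosomal RNA and its pseudogenes, 98 (35.4%) were lower and 0 higher by limma, with a median of -0.33. The background over all clusters was 2.48% lower. Arrays did not overlap, with CGG_TRA lower, in 11 U5, 48 U1 and 93 5S clusters, against 5.22% of all clusters. Copies of a class share sequence and are not independent.

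The other spliceosomal RNAs lay lower in smaller shares, with U6 near the background. Over all clusters 2.48% were lower, the share to set beside each count below. At an unadjusted p under 0.05, 15 of 52 U4, 4 of 13 U4atac, 4 of 15 U6atac and 7 of 34 U2 clusters were lower, with medians of -0.27, -0.30, -0.14 and -0.20. U4atac and U6atac act in the minor spliceosome. U6, with 800 clusters, had 27 lower (3.4%) and 7 higher and a median of -0.09. Among the small nucleolar RNAs, which guide the chemical modification of ribosomal and spliceosomal RNA, 22 of 184 H/ACA and 14 of 118 C/D clusters were lower, both classes with a median of -0.15. Cajal body RNAs had 2 of 26 lower and a median of -0.07. Y RNAs, which bind the Ro autoantigen, had 6 of 42 lower and a median of -0.24. Classes near 0 were 7SK (176 clusters, 1 lower and 4 higher, median -0.02), 7SL (471 clusters, 7 lower and 7 higher, median 0.02), U7 (60 clusters, 2 lower and 5 higher, median 0.04) and microRNAs (736 clusters, 18 lower and 24 higher, median 0.04).

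Values of 3 chosen copies of 5S, U5 and U1 RNA show the levels behind these shares. RNA5S17, a 5S gene, measured 16.55, 15.76 and 17.45 in CGG_TRA cells, against 18.10, 19.01 and 18.41 in GFP_TRA cells. The difference of -1.92 ± 0.33 missed the threshold (limma, adjusted p = 0.0549). Its means were 17.76 in CGG_siTRA, 17.68 in siTRA, 17.82 in CGG and 17.02 in CTL cells, so CGG_TRA was lowest and GFP_TRA highest of the 6 groups. RNU5A-1, a U5 gene, measured 8.26, 7.62 and 9.36 in CGG_TRA cells, against 9.83, 11.16 and 10.67 in GFP_TRA cells (-2.14 ± 0.35, limma, adjusted p = 0.0549). RNU1-88P, a U1 copy, measured 13.78, 13.59 and 14.70 in CGG_TRA cells, against 15.30, 15.94 and 15.32 in GFP_TRA cells (-1.50 ± 0.25, limma, adjusted p = 0.0549). In all 3 of these RNAs the third CGG_TRA array lay nearest to the GFP_TRA arrays and no array overlapped. Over 13 alternatives they passed the threshold in 5, 6 and 5, among them the fit without that array, and the adjusted p reached 0.514 (limma).

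RNU6ATAC measured 7.22, 6.14 and 7.82 in CGG_TRA cells, against 8.66, 9.72 and 8.65 in GFP_TRA cells, a difference of -1.95 ± 0.36 (limma, adjusted p = 0.0765). SNORA65, a box H/ACA RNA, measured 5.69, 4.68 and 6.18 in CGG_TRA cells, against 7.04, 9.03 and 7.50 in GFP_TRA cells, a difference of -2.34 ± 0.44 (limma, adjusted p = 0.0829). The second array was lowest of the CGG_TRA arrays and highest of the GFP_TRA arrays in each. RN7SK, the RNA that holds the elongation factor P-TEFb inactive, measured 19.58, 19.54 and 19.46 in CGG_TRA cells, against 19.45, 19.62 and 19.58 in GFP_TRA cells. Its difference was -0.02 ± 0.14 and its arrays overlapped. The arrays also overlapped in RNU4-2, RNU6-1 and SNORD46, with differences of -1.11, -0.47 and -0.60.

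**Figure D2:**
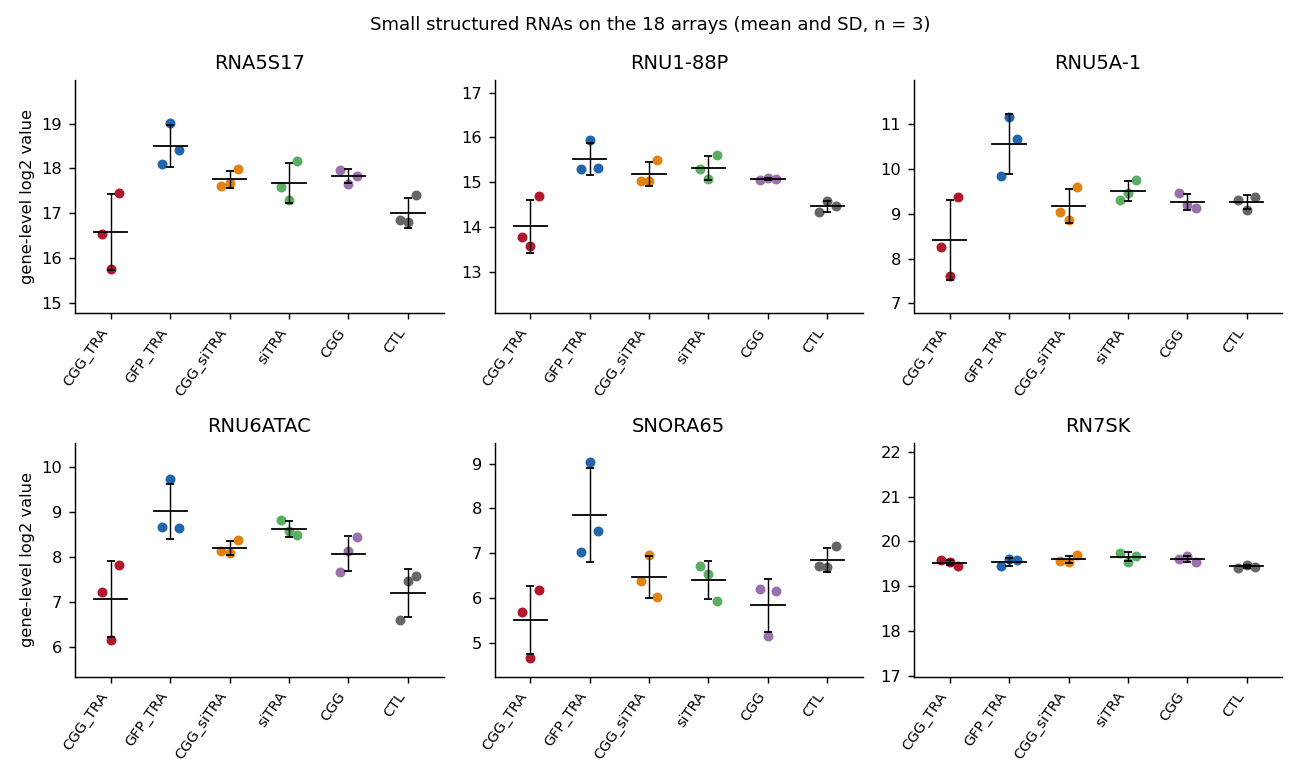
Gene-level log2 values of 6 small RNAs in each array (points) of the 6 groups, with the mean and SD (n = 3), each panel on its own axis. RNA5S17, RNU1-88P, RNU5A-1, RNU6ATAC and SNORA65 are lower in the 3 CGG_TRA arrays than in the 3 GFP_TRA arrays, and RN7SK lies between 19.45 and 19.62 in both.

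The small RNAs made up much of what lay near the threshold. At an adjusted p under 0.1 there were 38 lower clusters (limma). Of these, 24 were small RNAs with a single symbol, and 7 carried several symbols with a 5S or small nuclear RNA among them. A further 6 had no symbol. At the same threshold there were 4 higher clusters, with 0 small RNAs of a single symbol. Without the third CGG_TRA array 124 clusters were called, in place of 4, of which 122 were lower, 103 were small RNAs and 54 of these were 5S. With TRA2A knocked down the counts were smaller. In CGG_siTRA minus siTRA, 4 5S, 1 U1 and 0 U5 clusters were lower at an unadjusted p under 0.05 (limma), against 2.21% of all clusters there, with medians of 0.05, -0.02 and 0.03. In CGG minus CTL, 26 of 277 5S, 34 of 116 U1, 0 of 23 U5 and 119 of 800 U6 clusters were higher at an unadjusted p under 0.05 (limma), against 6.57% of all clusters, with medians of 0.12, 0.34, 0 and 0.13. RNA quality values for the arrays were not used here, so their part in the small RNA values was not tested.

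Exon-level values gave more calls than the gene level. For each exon region or junction, the value was taken relative to its gene in the same array, and 230888 features of 18009 genes were tested. In CGG_TRA cells 126 features were higher (0.0546%) and 2 lower (0.000866%) at an adjusted p under 0.05 by limma. Without the first CGG_TRA, the first GFP_TRA or the third GFP_TRA array the calls numbered 72, 78 and 82, of which 0, 1 and 1 were lower, and without the second GFP_TRA or the third CGG_TRA array 4 and 5 were lower. Relative to the median of the gene's features, in place of the gene value, 121 were higher and 37 lower. The 126 lay in 114 genes, and 10 genes had more than 1. Junctions made up 70 of them (55.6%), against 41.3% of the tested features. Their relative change ran from 1.43 to 7.19 with a median of 2.81, and the median level of the features was 11.12 in CGG_TRA and 7.77 in GFP_TRA cells. Features were tested where their mean over all 18 arrays passed 7.46, and in 56 of the 126 the GFP_TRA mean was below that value. These 56 passed through the arrays in which they were high, and the size of their change rests on low signals and was not measured at that end. In the other 70 the relative change ran from 1.43 to 5.57 with a median of 2.70. Without any filter on feature means 187 features were called higher and 6 lower.

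The 5 largest fitted changes among genes with a usual symbol were in junctions of PLAU, AGTPBP1, G3BP1, REG1A and EMILIN1, all called higher (limma). PLAU encodes the protease urokinase, and its junction JUC1000052527 measured 11.88, 9.18 and 11.33 in CGG_TRA cells, against 3.33, 3.16 and 4.21 in GFP_TRA cells. The PLAU gene value differed by 0.04. The AGTPBP1 junction JUC0900060977, in a gene for a deglutamylase of tubulin, measured 11.68, 11.16 and 11.36 in CGG_TRA cells, against 4.40, 5.16 and 5.72 in GFP_TRA cells. In both junctions the GFP_TRA arrays lay near the bottom of the scale, so the arrays were far apart but no size is given for the change.

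G3BP1 nucleates stress granules, and its junction JUC0500056704 measured 10.85, 10.39 and 9.61 in CGG_TRA cells, against 4.32, 4.58 and 4.55 in GFP_TRA cells, which were again low. The G3BP1 gene itself measured 14.84, 14.73 and 14.90 in CGG_TRA cells, against 14.73, 14.80 and 14.95 in GFP_TRA cells. REG1A encodes a secreted pancreatic lectin, and its junction JUC0200053385 measured 13.08, 11.80 and 13.06 in CGG_TRA cells, against 6.98, 6.39 and 7.44 in GFP_TRA cells, also below the filter value. EMILIN1 is a glycoprotein of elastic fibres, and its junction JUC0200049210 measured 14.15, 12.68 and 13.66 in CGG_TRA cells, against 7.15, 7.90 and 7.90 in GFP_TRA cells, a relative change of 5.47 ± 0.62. The GFP_TRA mean of the EMILIN1 junction passed the filter value. No array overlapped in these 5 junctions. An exon region of CUL2, a scaffold of ubiquitin ligases, changed by 4.95 (PSR1000170256).

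Most of these features also rose in the other comparisons of construct with no construct, which share no array with this one. Of the 126, 119 (94.4%) were also called higher in CGG_siTRA minus siTRA, where 0.097% of features were, and these are 53.1% of the 224 called there. In CGG minus CTL 118 (93.7%) were called higher, where 0.318% of features were, and these are 16.1% of the 734 called there. A total of 116 were called in all 3. These counts include the 56 features that passed the filter through the arrays in which they were high. Of the other 70, 66 were called higher in CGG_siTRA minus siTRA and 64 in CGG minus CTL. In 121 features all 9 arrays with the construct were above all 9 arrays without it. The median relative change of the 126 was 3.46 in CGG_siTRA minus siTRA and 3.59 in CGG minus CTL. The fitted change was larger than under overexpression in 105 features with TRA2A knocked down and in 93 features with TRA2A unaltered. These medians and counts include the 56 features with low GFP_TRA signals, whose sizes were not measured at that end. They thus do not tell whether the sizes differ. The difference in change was called for 1 of the 126 against unaltered cells and for 0 against knockdown cells (limma).

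**Figure D3:**
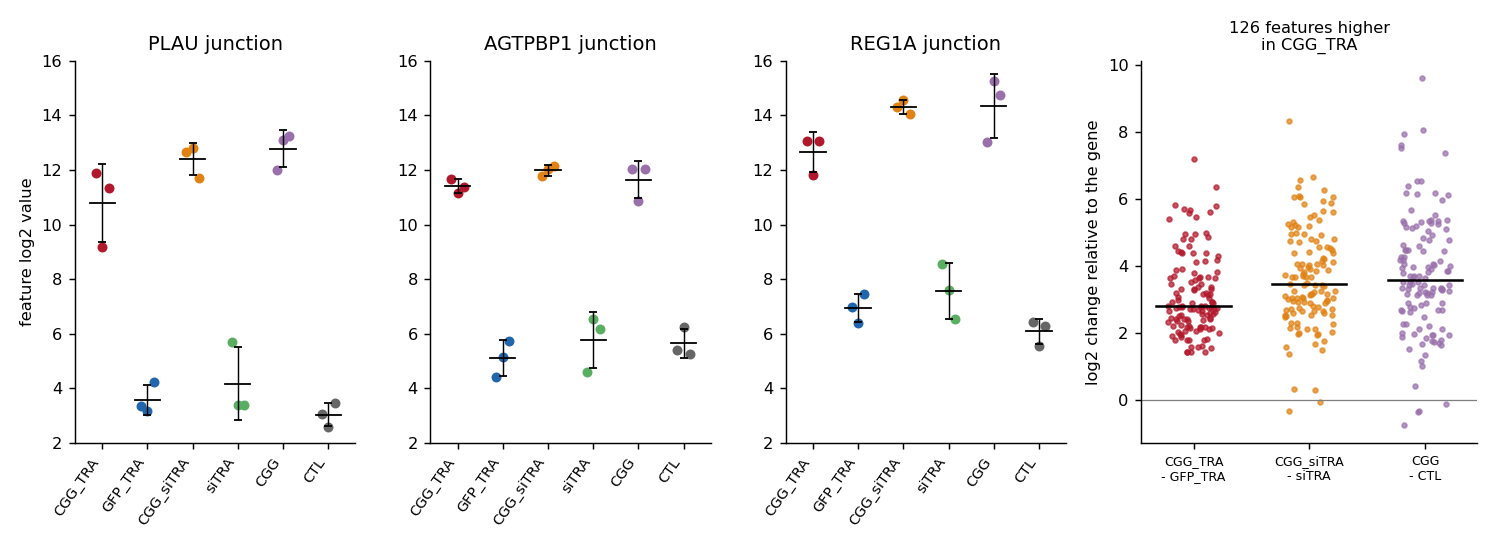
Left 3 panels, log2 value of a PLAU, an AGTPBP1 and a REG1A junction in each array (points) of the 6 groups, with the mean and SD (n = 3). Right panel, log2 change relative to the gene of the 126 features called higher in CGG_TRA (points) in the 3 comparisons of construct with no construct, with the median as a line (2.81, 3.46 and 3.59). The first column was used to choose the features. The 56 features with a GFP_TRA mean below the filter value are included.

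The host genes of these features stood mostly near 0 at the gene level. Their differences had a median of -0.01 and ran from -1.37 to 0.51. At the gene level 1 host, TRA2A, was called and 5 had an unadjusted p under 0.05. TRA2A entered through 3 features, JUC0700062020, PSR0700174549 and PSR0700174532, with relative changes of 2.11, 2.19 and 1.55 that contain the fall of the gene value itself. Probe sequences were not used here, so binding of these probes to RNA of the construct was not tested. The 2 lower features, chosen after their values were seen, lie in genes that host small nucleolar RNAs. PSR1200162967, shared by SLC25A3 and SNORA53, measured 6.63, 5.85 and 7.74 in CGG_TRA cells, against 9.39, 12.39 and 10.55 in GFP_TRA cells (-4.10 ± 0.58 relative to its gene, limma, adjusted p = 0.0069). PSR2000144718 of NOP56, a core protein of box C/D RNPs, measured 7.28, 6.90 and 7.15 in CGG_TRA cells, against 8.01, 8.05 and 8.05 in GFP_TRA cells (-1.19 ± 0.21, limma, adjusted p = 0.048). The call of the first was lost in 3 of 12 alternatives, with the adjusted p at 0.0028 to 0.167, among them the fits without the first or second CGG_TRA array. That of the second was lost in 11 of 12, at 0.0377 to 0.914, among them all 6 fits without 1 array.

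Stress genes that were far from CTL in cells with the construct alone were not called between CGG_TRA and GFP_TRA cells. HMOX1, the haem oxygenase induced by oxidative stress, measured 10.97, 11.07 and 11.44 in CGG_TRA cells, against 11.13, 11.55 and 11.95 in GFP_TRA cells, a difference of -0.38 ± 0.28. It averaged 11.59 in CGG cells and 5.76 in CTL cells. SQSTM1, the autophagy receptor p62, measured 15.23, 15.16 and 15.30 in CGG_TRA cells, against 15.24, 14.98 and 15.27 in GFP_TRA cells, a difference of 0.07 ± 0.17, with 15.38 in CGG and 11.49 in CTL cells. In both genes the arrays of CGG_TRA and GFP_TRA overlapped, and both groups were far above CTL.

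The CGG changes with overexpressed and with unaltered TRA2A differed in these genes by an interaction test that contains CGG minus CTL. GFP_TRA cells, without the construct, were themselves far above CTL in HMOX1 and SQSTM1. Whether CTL cells received any transfection is not given. A CGG change altered by TRA2A thus cannot be told apart from CTL cells differing from the other groups. For HMOX1 the change under overexpression minus that in unaltered cells was -6.22 ± 0.40 (limma interaction, adjusted p = 9.93e-08), and for SQSTM1 it was -3.82 ± 0.23 (adjusted p = 5.46e-08). AKR1B15, an aldo-keto reductase whose probes may not separate it from AKR1B10, measured 10.77, 10.76 and 11.08 in CGG_TRA cells, against 10.84, 10.75 and 10.76 in GFP_TRA cells, with 12.23 in CGG and 7.30 in CTL cells. Its interaction was -4.84 ± 0.24 (limma, adjusted p = 3.43e-09). GDF15, a stress-induced cytokine, measured 8.33, 8.57 and 9.0 in CGG_TRA cells, against 8.57, 8.38 and 8.30 in GFP_TRA cells. These lay between 10.43 in CGG and 6.61 in CTL cells, and the interaction was -3.60 ± 0.36 (limma, adjusted p = 5.66e-05). FABP3, a fatty acid carrier, was similar, with 8.60, 8.02 and 8.38 in CGG_TRA cells, against 8.28, 8.69 and 8.60 in GFP_TRA cells, and an interaction of -3.56 ± 0.36 (limma, adjusted p = 6.24e-05).

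Other genes far from CTL likewise overlapped between the overexpressing groups. GPNMB, a lysosomal glycoprotein, measured 12.88, 13.22 and 12.75 in CGG_TRA cells, against 13.02, 13.16 and 13.13 in GFP_TRA cells, with 14.00 in CGG and 11.10 in CTL cells. NPTX1, a neuronal pentraxin, went the other way, with 9.96, 9.97 and 9.78 in CGG_TRA cells, against 9.77, 10.01 and 10.22 in GFP_TRA cells, with 9.79 in CGG and 13.36 in CTL cells.

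**Figure D4:**
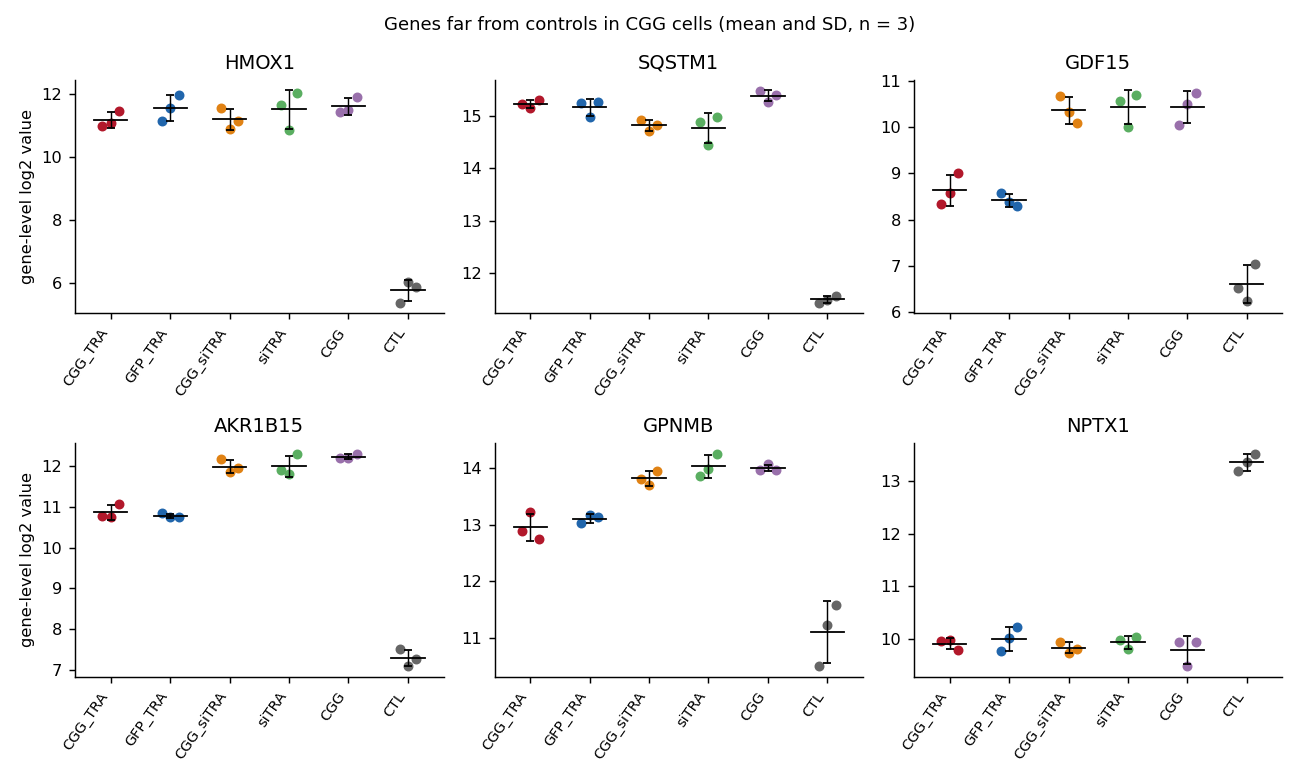
Gene-level log2 values of HMOX1, SQSTM1, GDF15, AKR1B15, GPNMB and NPTX1 in each array (points) of the 6 groups, with the mean and SD (n = 3), each panel on its own axis. The CGG_TRA and GFP_TRA arrays overlap in all 6 genes, and CTL stands apart from the other groups (HMOX1 at 5.76, NPTX1 at 13.36).

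The genes called in unaltered cells can be followed as a whole. In CGG minus CTL 342 clusters were called higher (0.504%) and 112 lower (0.165%). The 342, with a median of 1.09 there, had a median of -0.02 in CGG_TRA minus GFP_TRA, with 164 above and 178 below 0 and 0 called by limma. Of these, 22 (6.43%) were higher and 4 (1.17%) lower at an unadjusted p under 0.05, against 2.52% and 2.48% of all clusters. For 322 of the 342 the whole 95% interval lay within 1 of 0. The 112, with a median of -1.12 there, had a median of 0.09 here, with 78 above and 34 below 0. The test of the difference in CGG change against unaltered cells called 167 clusters, 0.246%, of which 33 were positive and 134 negative. Like the interactions above, it contains CGG minus CTL. With single arrays left out this test called 48 to 97 clusters without CTL 1, CGG 2 or 3, GFP_TRA 2 or 3, or CGG_TRA 1 or 2, and 277 without CGG_TRA 3. The calls in CGG minus CTL, 454 in all, numbered 196 without CTL 1, 288 without CGG 2, 179 without CGG 3 and 703 without CTL 3. Where TRA2A was knocked down, 0 clusters were called in CGG_siTRA minus siTRA (0% of clusters; 3209 at an unadjusted p under 0.05, limma), and the 342 had a median of -0.08. The test of the CGG change under overexpression against knockdown called 0% of clusters, with 2597 at an unadjusted p under 0.05 (limma). The exon-level tests of the same differences called 80 features (0.0346%) against unaltered cells and 0% against knockdown cells, with 5444 at an unadjusted p under 0.05 in the second (limma).

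Single stress and lysosome genes with higher values in CGG_TRA cells did not pass the test. Of 28 stress response genes 1, HSPA5, had an unadjusted p under 0.05 and was higher, with a list median of 0.18 and a range of -0.22 to 0.50. Of 33 autophagy and lysosome genes 2 were higher at that p, with a list median of -0.09 and a range of -0.49 to 0.50. Over all clusters 2.52% were higher at that p. DDIT3 was chosen after its values were seen, and ATP6V0D1 has the highest difference of its list. HSPA5, the chaperone BiP of the endoplasmic reticulum, measured 16.70, 16.88 and 16.96 in CGG_TRA cells, against 16.53, 16.54 and 16.46 in GFP_TRA cells. Its arrays did not overlap, and the difference was 0.34 ± 0.16 (limma, adjusted p = 0.9956), with 0.40 in CGG_siTRA minus siTRA and 1.19 in CGG minus CTL. DDIT3, the stress transcription factor CHOP, measured 8.67, 8.17 and 8.97 in CGG_TRA cells, against 8.21, 8.08 and 8.08 in GFP_TRA cells, a difference of 0.48 with 0.84 under knockdown and 2.46 in unaltered cells. Its arrays overlapped. ATP6V0D1, a subunit of the proton pump that acidifies lysosomes, measured 14.81, 14.69 and 14.52 in CGG_TRA cells, against 14.16, 14.04 and 14.31 in GFP_TRA cells (0.50 ± 0.17, limma, adjusted p = 0.7939).

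Gene lists give the comparison by function. Of 770 symbols in 31 lists, 652 distinct genes were measured. Of these 1 was called, TRA2A, and 12 were higher and 5 lower at an unadjusted p under 0.05 (limma). That is 2.61% of the 652, against 5% of all clusters. Groups did not overlap in 69 genes (10.6%), against 11.4% of all clusters. The medians of the lists ran from -0.11 to 0.20, and that of all list genes was 0.02.

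Lists with many called genes in CGG minus CTL had medians near 0 here. Over all clusters 0.504% were called higher in CGG minus CTL. For NRF2 targets, which detoxify oxidants, 15 of 26 were called in CGG minus CTL with a list median of 1.10, against a median of 0.02 and 0 called in CGG_TRA minus GFP_TRA. NQO1, a quinone reductase of this list, measured 12.97, 12.68 and 12.63 in CGG_TRA cells, against 12.72, 12.81 and 12.87 in GFP_TRA cells, with 13.22 in CGG and 11.12 in CTL cells. For the integrated stress and unfolded protein responses 13 of 28 were called there with a median of 0.99, and here the median was 0.18. For autophagy and lysosome genes 12 of 33 were called there with a median of 0.78, and here the median was -0.09. For cholesterol synthesis 11 of 20 were called there with a median of 0.89, and here the median was -0.06. HMGCS1, an early enzyme of that pathway, measured 12.79, 12.72 and 13.06 in CGG_TRA cells, against 13.02, 12.83 and 13.24 in GFP_TRA cells. Against unaltered cells the change was called lower for 11 of 26 NRF2, 8 of 20 cholesterol, 5 of 28 stress response and 4 of 33 autophagy genes (limma interaction), where 0.197% of all clusters were. This test contains CGG minus CTL, in which these lists were known to be high, so their direction is set by the choice of lists.

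**Figure D5:**
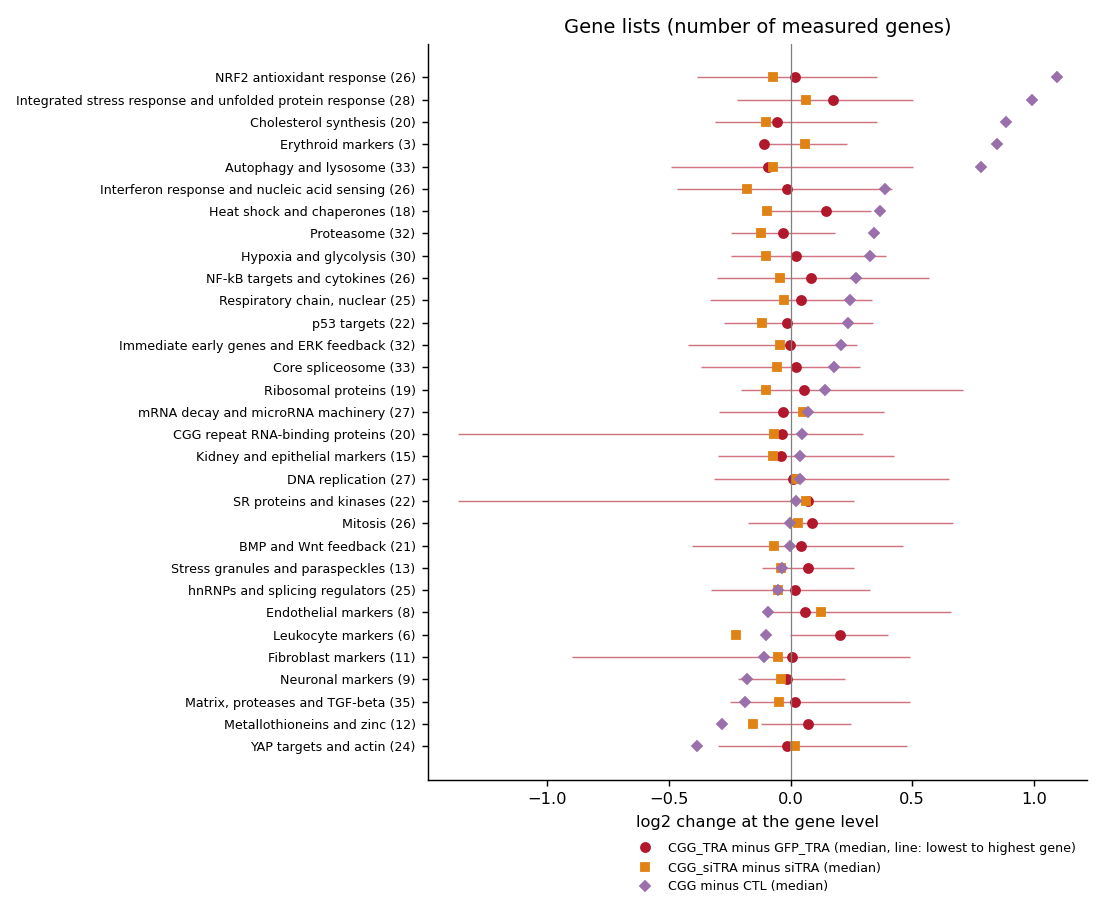
Median log2 change of the measured genes of 31 lists in CGG_TRA minus GFP_TRA (circles), CGG_siTRA minus siTRA (squares) and CGG minus CTL (diamonds), with a line over the lowest to highest gene for CGG_TRA minus GFP_TRA and the number of genes in brackets. The circles lie between -0.11 and 0.20, while the diamonds of the NRF2, stress response and cholesterol lists reach 1.10, 0.99 and 0.89.

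Splicing regulators and proteins that bind the repeat RNA had no called member besides TRA2A. Of the SR proteins and their kinases 22 of 24 were measured (median 0.07), of the hnRNPs and other regulators 25 of 28 (median 0.02), and of the core spliceosome 33 of 33 (median 0.02). SRSF1 measured 16.88, 17.06 and 17.08 in CGG_TRA cells, against 17.01, 16.90 and 17.03 in GFP_TRA cells. SRSF9, another SR protein, lay lower without overlap, at 11.42, 11.09 and 11.49 in CGG_TRA cells, against 11.55, 12 and 11.54 in GFP_TRA cells (-0.36 ± 0.17, limma, adjusted p = 0.9917). Of the repeat RNA-binding proteins 20 of 25 were measured (median -0.04). KHDRBS1, also called Sam68, measured 14.60, 14.40 and 14.52 in CGG_TRA cells, against 14.45, 14.68 and 14.61 in GFP_TRA cells, and DROSHA, the nuclear microRNA processing enzyme, differed by -0.10 and HNRNPA2B1 by -0.03.

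Other list members with an unadjusted p under 0.05 were few and are values only. FAP, a fibroblast protease, measured 7.09, 6.95 and 7.62 in CGG_TRA cells, against 7.63, 8.20 and 8.52 in GFP_TRA cells (-0.90 ± 0.28, limma, adjusted p = 0.6218). The proteoglycan LUM and the Wnt effector LEF1 differed by -0.52 and -0.41. CENPE, a mitotic motor, measured 13.25, 13.79 and 13.83 in CGG_TRA cells, against 13.12, 12.85 and 12.90 in GFP_TRA cells, a difference of 0.67. The DNA polymerase subunit POLD1 differed by 0.65, the ribosomal protein gene RPL5 by 0.71, the cytokines IL6 and LIF by 0.57 and 0.40, and the interferon-induced IFIT3 by 0.42. GABARAPL1, an autophagosome protein, differed by 0.45, the signalling proteins WNT5A and NOG by 0.46 each, and the endothelial junction protein ESAM by 0.66.

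A usual symbol here leaves out systematic names, those of the small RNAs described above among them, several of which had smaller p-values, and keeps named pseudogenes. Among all genes with a usual symbol, the 10 higher values with the smallest p among non-overlapping groups did not pass the test. METTL17, a factor of the mitochondrial ribosome, measured 6.39, 5.88 and 6.83 in CGG_TRA cells, against 5.11, 5.11 and 5.18 in GFP_TRA cells (1.23 ± 0.24, limma, adjusted p = 0.0873, and 0.0486 to 0.523 over the alternatives). PAXIP1, a DNA damage response protein, measured 12.58, 12.93 and 12.41 in CGG_TRA cells, against 11.66, 11.61 and 11.85 in GFP_TRA cells, a difference of 0.93 (limma, adjusted p = 0.1952). RPL3L, a ribosomal protein gene of muscle, measured 7.65, 7.24 and 7.86 in CGG_TRA cells, against 6.88, 6.16 and 5.90 in GFP_TRA cells, a difference of 1.27 (limma, adjusted p = 0.2, and 0.0324 to 0.724 over the alternatives). These arrays did not overlap. The others were ACTR3BP5 (1.09), PARP4P1 (1.0), CNOT10-AS1 (0.96), OR7A17 (0.95), STAC (0.88), WDR90 (0.73) and LMBR1 (0.69). After TRA2A the lower values by the same rule were TPTE2P4 (-1.11), MNDA (-0.76), MAOB (-0.72), SV2C (-0.71), OR51Q1 (-0.66), TRAPPC2P4 (-0.63), RSPH1 and CYCSP28 (-0.62 each) and PRANCR (-0.61), none called.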

How the data were processed

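The authors deposited 2 tables of log2 values for 18 arrays, made with SST-RMA (robust multi-array averaging after a transformation of the signal space), per the file headers. RMA and the Transcriptome Analysis Console are named without versions per the labels' protocols. The gene table has 135750 transcript clusters, and the exon table has 483868 exon regions and junctions with 43111 gene rows whose values equal those of the gene-level one. The genome build of the array annotation is not given in the sources used here. Arrays have no read depth, and precision is limited by their number. Groups were read from the titles.

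The tests used R 4.3.3, limma 3.58.1 (lmFit, eBayes) and data.table (1.17.8), fitting 1 model of 6 group means over all 18 arrays, two-sided, and Benjamini-Hochberg adjustment over all tested clusters or features. Clusters above the median of cluster means (4.14) were tested; 25413 carry 1 symbol, 874 several and 41567 none. Of 23836 symbols 13662 are in the green monkey annotation. A feature was tested relative to its gene where its mean passed 7.46, the gene passed its own filter and had at least 3 features. Figures used Python 3.11.15 and matplotlib 3.10.9. The scripts were tested on simulated data.

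The comparison, its members, lists and tests were chosen with earlier results of these data known. Named were TRA2A, TRA2B and FMR1, called clusters, genes with usual symbols and non-overlapping arrays (called ones, filled to 10 per direction by the smallest p), list members with the smallest p, the 5 largest interactions or else 3 with the smallest p, and the 5 largest exon changes. Other genes were named after their values were seen. Alternatives changed the filter, normalization, variance model, replicate block, rehybridisation of 2 arrays, call rule and exon reference, and left out single arrays.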

Additional observations from a re-analysis of the deposited data

Results flagged for a closer look

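The CGG change in cells with overexpressed TRA2A differed from that in cells with unaltered TRA2A for 167 transcript clusters (limma interaction, adjusted p under 0.05) and for 80 exon features. All values here are (CGG_TRA minus GFP_TRA) minus (CGG minus CTL), on the log2 scale, each past the threshold. Among stress genes it was -6.22 for HMOX1, -4.84 for AKR1B15, -3.82 for SQSTM1, -3.60 for GDF15, -3.56 for FABP3 and -1.78 for SLC7A11, the cystine transporter. In each of these the CGG_TRA and GFP_TRA arrays overlapped. The interaction contains CGG minus CTL, so a CGG change altered by TRA2A cannot be told apart from CTL cells differing from the other groups.

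TRA2A itself had an interaction of -1.31 and the unnamed cluster TC0500007930.hg.1 one of -2.27. Small RNAs chosen after their values were seen also differed. RNU5D-2P had -2.53, and the U1 copies RNU1-88P and RNU1-3 had -2.10 and -1.73. RNU6ATAC had -2.81. The 5S genes RNA5S17 and RNA5S9 had -2.73 and -2.96, and the 5S copies RNA5SP202, RNA5SP389 and RNA5SP199 had -2.94, -4.41 and -4.02. The calls of AKR1B15, FABP3, GDF15, HMOX1, SQSTM1 and TC0500007930.hg.1 held in all 19 alternatives, that of SLC7A11 in 18, that of TRA2A in 2, and those of the small RNAs were lost in 2 to 11, with adjusted p up to 0.0996 (limma).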

How the results depend on the processing

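No called result changed direction under any alternative. Uncalled differences near 0 changed sign for RN7SK (0.0052 after quantile normalization, and -0.0733 to 0.0117 without 1 array), SQSTM1 (-0.025 to 0.12 without 1 array) and AKR1B15 (-0.0183 to 0.142 without 1 array). Counts of calls depended on the settings, and the causes were not tested. CGG_TRA minus GFP_TRA, with 4 called clusters, had 36 with the filter at the 75th percentile, 35 after quantile normalization (2 higher, 33 lower), 0 with the variance of the compared arrays alone (few degrees of freedom), 47 with a trended and robust variance, 32 with the replicate number as a block, 262 by the 2-fold rule (69 higher, 193 lower), and 0 to 124 when 1 array was left out, the most without the third CGG_TRA array. CGG_siTRA minus siTRA, with 0, had 2 with the block, 136 by the 2-fold rule and 0 to 1 without 1 array. CGG minus CTL, with 454, had 810 with the stricter filter, 55 with the variance of the compared arrays, 783 with the trended variance and 179 to 703 without 1 array. The interaction against unaltered cells, with 167, had 109 without a filter, 326 with the stricter one, 53 with the variance of the compared arrays, 297 with the trended variance, 2198 by the 2-fold rule and 48 to 277 without 1 array. The interaction against knockdown, with 0, had 1 with the trended variance, 653 by the 2-fold rule and 0 to 42 without 1 array. Exon-level calls, 128, became 193 without a filter, 46 with the stricter one, 61 with exon regions alone and 72 to 107 without 1 array; relative to the median of the gene's features they were 121 higher and 37 lower, against 126 and 2. TRA2A features called on their own values, 9, became 4 with the block.

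Same-numbered arrays did not deviate together (correlations of -0.06, 0.03 and -0.02), so the numbers are not read as pairs. In settings added after the data were seen, the lower 5S, U1 and U5 clusters at an unadjusted p under 0.05 numbered 80 to 110, 45 to 55 and 7 to 11, and the 80 exon interactions became 37 with the block and 3610 for feature values not relative to the gene. Of 403 list medians 5 moved by more than the spread between arrays. With 3 arrays a group, only large changes could be called.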

Other observations

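Of the 454 clusters called in CGG minus CTL, 13 lay in the same direction in all 3 comparisons of construct with no construct. Each had an unadjusted p under 0.05 in every comparison (limma), and the comparisons share no array. Over all clusters, in either direction, 5% had such a p in CGG_TRA minus GFP_TRA and 4.73% in CGG_siTRA minus siTRA. The 13 were selected by these values, so this is a description. HSPA5 was one, and LCN2, the iron-carrying lipocalin, was another, with differences of 0.93 in CGG_TRA minus GFP_TRA, 1.17 in CGG_siTRA minus siTRA and 2.17 in CGG minus CTL. The microRNA gene MIR371A had 0.99, 1.03 and 1.67 in the same order, and 9 of the 13 carry no gene name. One of these, TC1500007167.hg.1, had 1.73, 1.89 and 1.62.

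The cluster TC0800011703.hg.1 has no gene name in the table used here, yet averaged well above the other 4 groups in both groups with overexpressed TRA2A, as TRA2A did. The genes named for the smallest p in the interaction of overexpression against knockdown, after TRA2A, were SMIM22 (1.47) and USP29 (-1.09), neither called.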
